A study of Mus musculus with 14 samples.

Results

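Esrrb, Esrra and Esrrg encode the estrogen-related receptors (ERRβ, ERRα and ERRγ), and Ppargc1a, Ppargc1b and Pprc1 encode the PGC-1 family of coactivators that work with them. These 6 genes, all present among the 16124 genes measured, were picked by name around Esrrb, which had itself been selected on its genotype difference in these same mice, so that difference is described here without a test. RNA was sequenced from mammary epithelial cells (MECs) of 7 WT and 7 Usp22 OE/OE females, 3.5 months old, with 1 library per mouse. The mice were matched as littermates in pairs numbered 1, 3, 4, 5, 6, 7 and 8. OE/OE mice are homozygous for a FLAG- and MYC-tagged mouse Usp22 cDNA behind the strong CAGGS promoter at ROSA26. A floxed STOP cassette had been excised by ZP3-Cre, which acts in the oocyte, so the transgene is active in the whole animal and not in the epithelium alone, and the WT littermates do not overexpress Usp22. Glands 2, 3 and 4 of both sides, without the lymph nodes of gland 4, were digested and spun to organoids, which were then dissociated to single cells.

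Estrogen-related receptors resemble the estrogen receptors in sequence but need no steroid to be active. They bind DNA at variants of the element TCAAGGTCA and depend on coactivators, chiefly the PGC-1 proteins, to switch on genes for fatty acid oxidation, the citric acid cycle and the respiratory chain. Esrra and Esrrg are best known from energy-demanding tissues, whereas Esrrb is best known as a factor of the naive pluripotency network of embryonic stem cells and of the trophoblast. Among the coactivators, PGC-1α (Ppargc1a) and PGC-1β (Ppargc1b) are the main drivers of mitochondrial gene expression, and PRC (Pprc1) is a related protein linked to cell growth.

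The reference sequence around the start sites of the receptors is shown first. Whether it bears on how steadily the receptors were expressed was not tested. RefSeq windows on GRCm38.p6, from 250 bases before a start site to 50 bases after it, were held for 5 of the 6 genes, 9 windows in all. Esrrb has 2 of them, 60527 bp apart on the plus strand of chromosome 12, at chr12:86360867-86361166 and chr12:86421394-86421693, and the Esrra window lies on the minus strand at chr19:6921759-6922058. They are written 5′ to 3′ on the strand of the gene, with every CpG dinucleotide in capitals.
Esrrb upstream start: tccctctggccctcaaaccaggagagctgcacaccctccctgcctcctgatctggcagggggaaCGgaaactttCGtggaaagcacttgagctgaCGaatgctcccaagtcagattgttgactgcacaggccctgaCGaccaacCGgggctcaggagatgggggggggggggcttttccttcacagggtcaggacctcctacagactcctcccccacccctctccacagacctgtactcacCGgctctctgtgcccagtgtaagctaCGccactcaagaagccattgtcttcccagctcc
Esrrb downstream start: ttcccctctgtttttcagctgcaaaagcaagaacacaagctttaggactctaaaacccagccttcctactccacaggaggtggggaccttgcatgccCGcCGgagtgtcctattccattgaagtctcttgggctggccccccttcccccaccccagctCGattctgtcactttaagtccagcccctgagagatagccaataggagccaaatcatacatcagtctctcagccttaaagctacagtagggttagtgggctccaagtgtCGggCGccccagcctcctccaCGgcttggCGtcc
Esrra: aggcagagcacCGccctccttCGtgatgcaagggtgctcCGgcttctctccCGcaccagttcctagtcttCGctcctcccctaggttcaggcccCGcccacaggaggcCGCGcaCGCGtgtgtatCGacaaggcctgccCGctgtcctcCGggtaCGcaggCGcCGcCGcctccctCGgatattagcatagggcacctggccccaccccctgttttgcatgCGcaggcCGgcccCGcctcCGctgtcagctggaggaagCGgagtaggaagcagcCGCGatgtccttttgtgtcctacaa
Both Esrrb windows hold 7 CpG dinucleotides, which is also the median of all windows, with a GC content of 60% upstream and 55.3% downstream. The Esrra window holds 25 CpG dinucleotides at a GC content of 66%, more CpG than 81.4% of all windows. The 4 Esrrg windows hold between 15 and 22, the Pprc1 window 14 and the Ppargc1a window 5. Motifs were searched on both strands of all 32544 windows. The full receptor element TCAAGGTCA was in 0.412% of all windows, its shorter core AAGGTCA, which the full element contains, in 4.71%, and the palindromic estrogen response element, GGTCA and its reverse complement with 3 bases between, in 0.0707%, and none of these occurred in the 9 windows of the members. The 6-letter core AGGTCA, which the first and second motifs contain, was in 16.2% of all windows and, among the members, in the Pprc1 window only.

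The libraries held between 20125106 and 41835978 fragments counted on genes (median 37838930), the WT mice of pairs 1 and 8 being the shallowest, and Usp22 itself lay between 3500 and 5380 normalized counts in WT and between 74948 and 144288 in OE/OE. The OE/OE library of pair 4 stood apart, at a distance of 121.4 from the mean library on the log2 scale, against 86.2 for the next and 51.2 to 69.6 for the other libraries. Markers of hormone-sensing luminal cells (10 of 10 listed genes), luminal progenitor and alveolar cells (8 of 8) and basal cells (8 of 8) were all in the table. Markers of other cells were present too: the 7 fibroblast markers summed to between 87375 and 176777 normalized counts in WT and between 56699 and 130336 in OE/OE, and the 8 white adipocyte markers to between 13291 and 34038 in WT and between 9933 and 30536 in OE/OE. Of 7 brown adipocyte markers, 4 were measured and summed to at most 249 normalized counts, with Cox8b, Elovl3 and Zic1 not in the table, and the 10 striated muscle markers, another tissue rich in these receptors, summed to between 432 and 1663.

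Esrrb was higher in the OE/OE mouse of 6 of the 7 littermate pairs, and its level was the least steady of the 6 genes. The gene (ENSMUSG00000021255) lies on chromosome 12 from 86361117 to 86521628 on the plus strand, and shares no exon sequence with another gene. In pair 1 Esrrb was at 85.2 normalized counts in WT against 185 in OE/OE, in pair 4 at 99.8 and 937, in pair 6 at 23.0 and 109, and in pair 8 at 99.3 and 1191. In pair 5 the values were 412 in WT against 1038 in OE/OE, in pair 7 they were 492 and 1127, and in pair 3, the exception, 477 and 378. The mean was 241 ± 208 in WT against 709 ± 468 in OE/OE (SD, n = 7), a log2 difference of 1.75 on the log2(normalized count + 1) scale, or 3.37-fold. In a bulk library, fewer cells that express a gene and less RNA in each of them cannot be told apart.

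The ratio of OE/OE to WT varied widely between litters. It was 11.9-fold in pair 8 and 9.30-fold in pair 4, then 4.56-fold in pair 6, and between 2.16-fold and 2.52-fold in pairs 1, 5 and 7, against 0.793-fold in pair 3, and the log2 ratios had an SD of 1.35 around their mean. Of the WT mice, 4 had at most 99.8 normalized counts and 3 at least 412. The groups overlapped: 4 WT mice lay below the lowest OE/OE mouse and 4 OE/OE mice above the highest WT mouse. Esrrb counts rested on between 27 and 1426 fragments per library, so counting error is small beside these differences. Without pair 4, which holds the library that stood apart, the mean log2 difference was 1.51, and leaving out each pair in turn gave between 1.45 (without pair 8) and 2.10 (without pair 3).

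Marker levels of white adipocytes and fibroblasts also differed between the groups, given here as values with no test. The white adipocyte score, the mean log2 level of 8 marker genes, was 7.35 ± 0.67 in WT against 6.46 ± 0.78 in OE/OE (SD, n = 7) and was lower in OE/OE in 6 of 7 pairs, with all 8 markers measured. The pair log2 ratios of this score were 0.53 in pair 1, −1.02 in pair 3, −2.26 in pair 4, −0.64 in pair 5, −1.05 in pair 6, −0.51 in pair 7 and −1.29 in pair 8. The 2 pairs with the largest Esrrb ratios, 8 and 4, also had the largest drops in adipocyte markers, while pair 3 had a drop in them with lower Esrrb, and pair 1 higher levels of both. The fibroblast score was 13.3 ± 0.40 in WT against 12.9 ± 0.55 in OE/OE and was lower in OE/OE in 5 of 7 pairs, with all 7 markers measured. The brown adipocyte, striated muscle, endothelial, immune and Schwann scores were lower in OE/OE in 3 or 4 of 7 pairs. With the adipocyte score as a covariate the log2 difference of Esrrb was 0.98 instead of 1.75. With the hormone-sensing luminal score, which had pair log2 ratios between −0.26 and 0.18, the difference was 1.74.

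**Figure D1:**
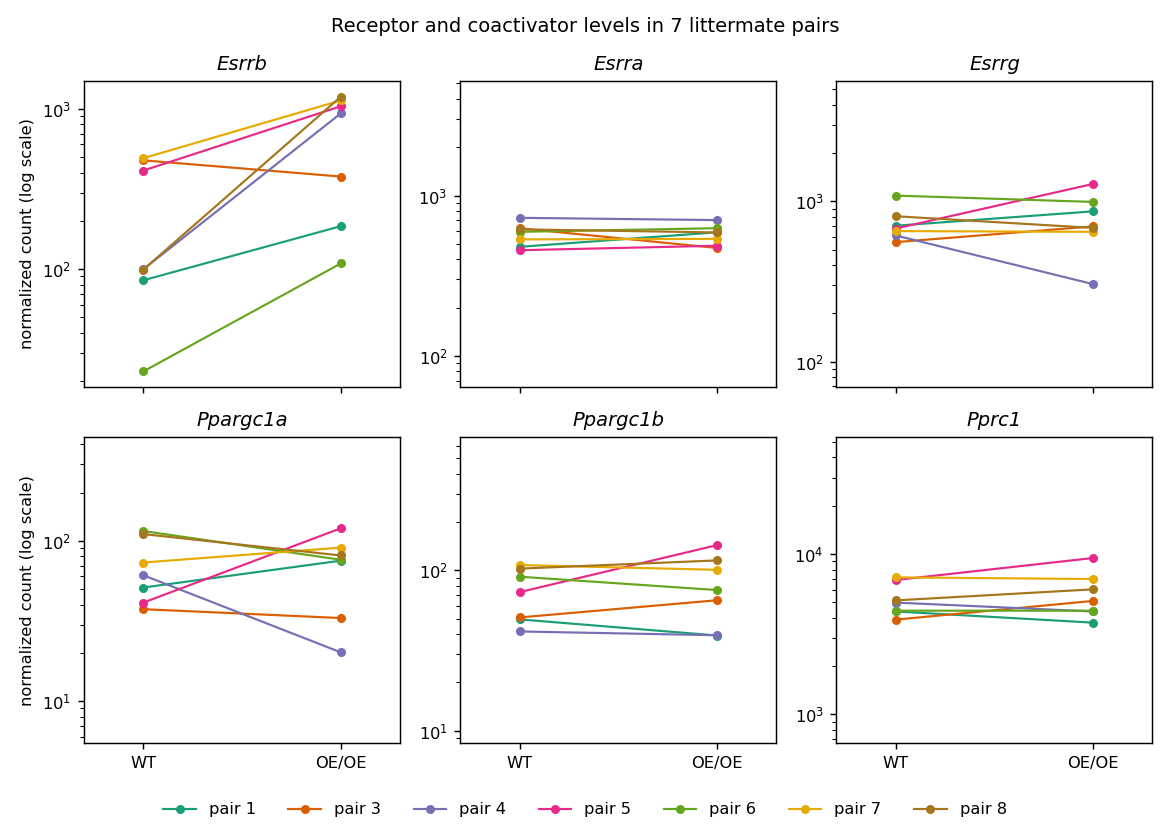
Normalized counts (vertical axis, log scale spanning the same number of decades in each panel) of the 6 genes in WT and OE/OE MECs; each line joins the 2 littermates of a pair. Esrrb ran from 23.0 to 1191 and was higher in OE/OE on 6 of 7 lines, whereas the Esrra lines stayed between 456 and 726.

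Part of the Esrrb spread lay between pairs, as it did for the other members, whose between-pair shares ran from 60.4% (Ppargc1a) to 87.3% (Pprc1). Pairs take some share of a sum of squares even without a litter effect. Of the sum of squares of its log2 values, 58.2% lay between pairs, 27.8% between genotypes and 14.1% in the remainder, and across the 7 pairs the WT and OE/OE littermates had a Pearson r of 0.62, given as a description. Among WT mice alone the values spanned 21.4-fold, from 23.0 to 492, and the SD of 1.64 on the log2 scale was above that of 99.2% of all genes measured. In OE/OE mice the SD of 1.41 was above that of 97.9% of genes. Esrrb had the largest SD in WT of the 36 nuclear receptors in the table.

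Esrra, the receptor most closely tied to PGC-1 and mitochondrial genes, was steady and showed no detectable genotype difference. The gene (ENSMUSG00000024955) lies on the minus strand of chromosome 19 from 6910977 to 6921813; it shares 73 bp of exon with Trmt112 on the opposite strand, and whether the counting used strand is not given in the sources used here. It ran from 456 to 726 normalized counts in WT, with a median of 594, and from 471 to 703 in OE/OE, with a median of 589. The groups overlapped almost fully. The mean log2 difference was −0.01 (95% interval −0.21 to 0.20), with a limma p of 0.954 and a Benjamini-Hochberg adjusted p of 1.00, and OE/OE was higher in 4 of 7 pairs. The largest pair log2 ratios were 0.30 in pair 1 and −0.41 in pair 3.

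Esrrg had close means in the 2 genotypes and a wider range in OE/OE. The gene (ENSMUSG00000026610) lies on the plus strand of chromosome 1 from 187608791 to 188214885 and encodes a receptor known from oxidative muscle, heart and brain. It ran from 556 to 1085 normalized counts in WT, with a median of 676, and from 304 to 1284 in OE/OE, with a median of 697. Both extremes were OE/OE mice, the lowest from pair 4 and the highest from pair 5. The mean log2 difference was 0.02 (95% interval −0.41 to 0.45), with a limma p of 0.911 and an adjusted p of 1.00, and 3 of 7 pairs were higher in OE/OE. The log2 ratio was −1.01 in pair 4, where Esrrb was 9.30-fold higher, and 0.92 in pair 5; without pair 4 the mean difference was 0.19.

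**Figure D2:**
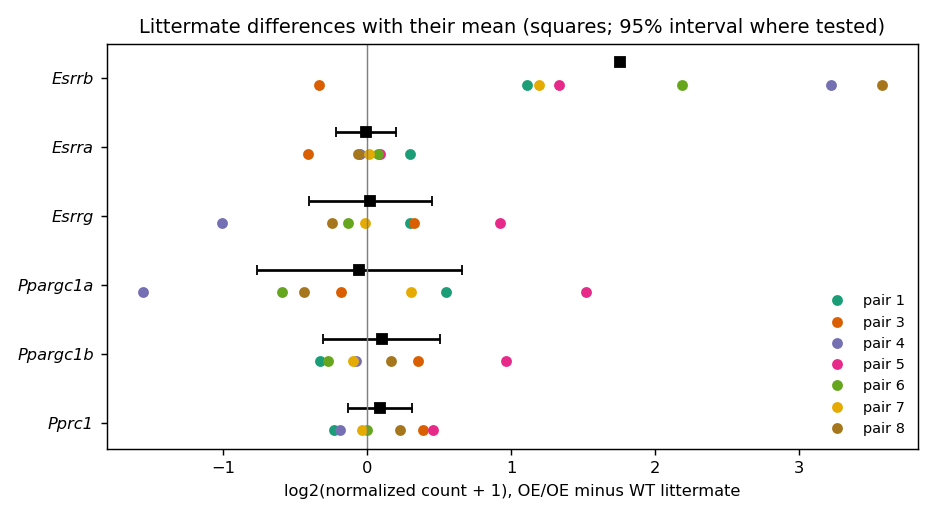
Difference in log2(normalized count + 1) between the OE/OE and WT littermates of each pair (coloured points), with the mean as a black square and its 95% limma interval for the 5 genes that were tested. The Esrrb points ran from −0.34 to 3.57, and the intervals of the other 5 genes all included 0.

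The sum of the 3 receptors, counted per kb of exon so that genes of different length can be set side by side, was 288 ± 26.9 in WT against 373 ± 76.9 in OE/OE (SD, n = 7). Esrrb made up 13.5 ± 11.2% of it in WT (lowest 1.21%, median 5.96%, highest 26.4%) and 29.3 ± 16.7% in OE/OE (lowest 5.61%, median 35.1%, highest 45.2%). The share of Esrra was 45.6 ± 7.17% in WT against 36.2 ± 8.73% in OE/OE, and that of Esrrg 40.8 ± 9.28% and 34.5 ± 13.4%. Per kb, Esrrb was above Esrrg in the OE/OE mice of pairs 4, 7 and 8 and in none of the 7 WT mice. These shares follow from the Esrrb values that led to its selection and carry no test.

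**Figure D3:**
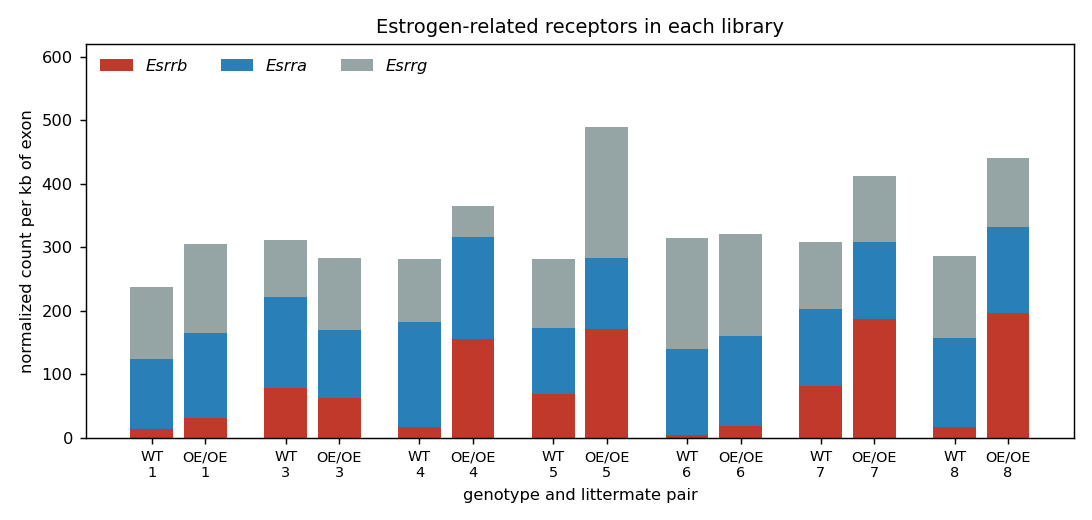
Normalized counts per kb of exon of the 3 receptors (stacked bars) in each library, ordered by littermate pair. The Esrrb part ran from 3.81 to 81.4 in WT and from 17.9 to 197 in OE/OE, while the Esrra part lay between 104 and 166 in every library.

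Of the coactivators, Ppargc1a (ENSMUSG00000029167, chromosome 5 from 51454250 to 51567726, minus strand), which is induced by cold, exercise and fasting in other tissues, was low and uneven. It ran from 37.5 to 115 normalized counts in WT, with a median of 61.0, and from 20.1 to 120 in OE/OE, with a median of 76.1, on 21 to 135 fragments per library. The groups overlapped along nearly their whole range. The mean log2 difference was −0.06 (95% interval −0.77 to 0.66), with a limma p of 0.865 and an adjusted p of 1.00, and 3 of 7 pairs were higher in OE/OE. The pair log2 ratios ran from −1.55 in pair 4 to 1.52 in pair 5, and without pair 4 the mean difference was 0.19. With the white adipocyte score as a covariate the difference was 0.71 (unadjusted limma p 0.0679).

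Ppargc1b (ENSMUSG00000033871, chromosome 18 from 61298136 to 61400431, minus strand), the coactivator of constitutive mitochondrial and lipogenic programmes, was also low in counts. It ran from 41.5 to 108 normalized counts in WT, with a median of 73.0, and from 39.2 to 143 in OE/OE, with a median of 75.3. Most of its variation was between litters, at 87.2% of the sum of squares. The mean log2 difference was 0.10 (95% interval −0.30 to 0.51), with a limma p of 0.586 and an adjusted p of 1.00.

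Pprc1 (ENSMUSG00000055491, chromosome 19 from 46044886 to 46072915, plus strand), the coactivator that responds to serum and growth signals, was the most abundant member; it shares 177 bp of exon with Ldb1 on the opposite strand. It ran from 3895 to 7150 normalized counts in WT, with a median of 4977, and from 3731 to 9444 in OE/OE, with a median of 5098. As for Ppargc1b, most of the variation, 87.3% of the sum of squares, was between litters. The mean log2 difference was 0.09 (95% interval −0.13 to 0.31), with a limma p of 0.389 and an adjusted p of 1.00, and 3 of 7 pairs were higher in OE/OE.

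None of the 5 other members passed an unadjusted p of 0.05 or less. In the table as a whole, 614 of 16124 genes did, or 3.81%, and 2 had an adjusted p under 0.05. Over 95 alternative fits of these 5 genes 0 reached that threshold, the smallest p being 0.0607 for Esrrg with the adipocyte score as a covariate, where its log2 difference was 0.46. At the 95% level the intervals left room for changes of up to 0.77 log2 units in Ppargc1a, 0.51 in Ppargc1b and 0.45 in Esrrg, and of at most 0.31 in Pprc1 and 0.21 in Esrra.

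The order of levels per kb of exon in WT was Pprc1, Esrra, Esrrg, Esrrb, Ppargc1b and Ppargc1a. Pprc1 stood at 838 ± 201 normalized counts per kb, Esrra at 131 ± 21.3, Esrrg at 117 ± 28.3, Esrrb at 39.9 ± 34.4, Ppargc1b at 18.5 ± 6.82 and Ppargc1a at 10.6 ± 4.79 (SD, n = 7). Pprc1 was above Esrra in 7 of 7 WT mice (mean log2 difference 2.66, exact two-sided sign-flip p 0.0156, adjusted 0.0260 over 5 neighbours), and Ppargc1b was above Ppargc1a in 7 of 7 (0.84, exact p 0.0156, adjusted 0.0260), which is the smallest p that 7 mice allow. Esrra and Esrrg did not differ beyond their spread (0.18, 4 of 7 mice, exact p 0.328, adjusted 0.410). The steps that involve Esrrb are given without a test, since its WT level entered its selection: Esrrg was above it by 2.19 log2 units, in 7 of 7 WT mice, and it was above Ppargc1b by 0.53, in 5 of 7. In OE/OE the mean levels per kb had Pprc1 first and Ppargc1a last as in WT, and Esrrg was above Esrrb by 0.44 log2 units and in only 4 of 7 mice.

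Across the 7 pairs, none of 16 quantities compared with the Esrrb log2 ratio passed adjustment; these were the other 5 members, Usp22 and 10 marker scores, and the smallest adjusted p for Pearson's r was 0.691. The Esrrg ratio had r = −0.67 (exact permutation p 0.0917) and rho = −0.75 (exact permutation p 0.0663), and r was −0.89 without the 2 pairs farthest from the median Esrrg ratio but −0.26 without the 2 farthest in Esrrb itself, pairs 4 and 8. For Usp22 r was −0.67 (exact permutation p 0.106) and rho −0.57 (exact permutation p 0.200), and r was −0.86 without the 2 pairs farthest in Usp22 and −0.44 without pairs 4 and 8. For the white adipocyte score r was −0.55 (exact permutation p 0.186) and rho −0.75 (exact permutation p 0.0663), with r = −0.47 without the 2 pairs farthest in that score and 0.054 without pairs 4 and 8. For the endothelial score, which was lowest in the OE/OE mouse of pair 4, rho was −0.82 (exact permutation p 0.0341, adjusted 0.353) and r −0.58 (exact permutation p 0.144, adjusted 0.691), with r = −0.69 without the 2 pairs farthest in that score and −0.061 without pairs 4 and 8. The relations with Esrrg and with the adipocyte and endothelial scores were thus weaker without pairs 4 and 8. Those pairs have the largest Esrrb ratios, so leaving them out also narrows the Esrrb range. Whether the relations depend on them cannot be told from so few pairs.

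Among the members themselves, 1 of 15 relations between pair ratios passed adjustment; this family was added after the data were seen. The ratios of Ppargc1b and Pprc1 had r = 0.88 (exact permutation p 0.00238, adjusted 0.0357) and rho = 0.86 (exact permutation p 0.0238, adjusted 0.179), and r was 0.75 without the 2 pairs farthest in Ppargc1b. Those of Esrrg and Ppargc1a had r = 0.94 (exact permutation p 0.00754, adjusted 0.0565) and rho = 0.86 (exact permutation p 0.0238, adjusted 0.179), and r was 0.61 without the 2 pairs farthest in Esrrg, pairs 4 and 5. Pair 5 was the highest pair for Esrrg, Ppargc1a, Ppargc1b and Pprc1, at log2 ratios of 0.92, 1.52, 0.96 and 0.46.

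Most genes that ERRs and PGC-1 are known to switch on had differences close to 0. A list of 32 such genes was written from general knowledge, with earlier results of these data known. Of these, 31 were measured (Cpt1b was not in the table). An unadjusted p of 0.05 or less was passed by 1 of them, or 3.23%, beside 3.81% of all genes. The median log2 difference of the list was −0.01 and that of all genes −0.00147. Enzymes of the citric acid cycle lay close to 0 (Idh3a −0.02, Cs 0.04, Ogdh −0.02), as did subunits of the respiratory chain and ATP synthase (Sdhb −0.08, Cyc1 −0.06, Cox5b −0.05, Atp5b 0.06) and enzymes of fatty acid oxidation (Acadm −0.05, Acadvl 0.01, Cpt1a −0.08). By pair the median of the list ran from −0.17 in pair 8 to 0.28 in pair 4, which are the 2 pairs with the largest Esrrb ratios. Lactotransferrin (Ltf), a milk and luminal cell protein with a known receptor element, was at 25032 ± 10823 normalized counts in WT against 20430 ± 9678 in OE/OE (SD, n = 7), a log2 difference of −0.37 (limma p 0.366, adjusted p 1.00); without pair 4 it was 0.075.

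The gene that passed was Pdk4, the kinase that shuts pyruvate out of the citric acid cycle. The paper had already named Pdk4 among its upregulated genes in the same RNA-seq comparison and by qRT-PCR. Its place on the list and its p-value here are therefore not a fresh result. It ran from 1338 to 4757 normalized counts in WT, with a median of 3080, and from 3033 to 7515 in OE/OE, with a median of 5476. The groups overlapped, and the OE/OE mouse was higher in all pairs but pair 6. Its log2 difference was 0.78 with an SE of 0.26 (limma p 0.0146, adjusted p 1.00), and it was called in 17 of 19 alternatives, the exceptions being the adipocyte covariate (0.55, p 0.181) and a paired fit without moderation (p 0.0514). Its largest log2 ratio, 2.49, was in pair 3, the pair in which Esrrb was lower in OE/OE. Without pair 3 its difference was 0.49. Pdk4 is also expressed in adipocytes, whose markers were lower in that OE/OE mouse; their part in the result was not tested.

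Coregulators and partner factors, meaning the acetyltransferases, deacetylases, corepressors, kinases and transcription factors that modify or work with PGC-1, numbered 36 measured of 39 listed (Hnf4a, Nr0b1 and Nr0b2 were not in the table). Thrb, a thyroid hormone receptor, passed an unadjusted p of 0.05 or less, which is 2.78% of the list, beside 3.81% of all genes. The median log2 difference was 0.06. Thrb was at 204 ± 25.2 normalized counts in WT against 256 ± 53.1 in OE/OE (SD, n = 7), higher in all pairs but pair 4, with a log2 difference of 0.30 (limma p 0.0375, adjusted p 1.00), and its call was kept in 11 of 19 alternatives. Without the block its p was 0.0886, and it was lost when any pair other than pair 4 was left out (p between 0.0600 and 0.108). The corepressor Nrip1, the most abundant gene of the list, was at 20251 ± 7146 normalized counts in WT (log2 difference −0.06, limma p 0.637, adjusted p 1.00). Kat2a, which encodes the acetyltransferase GCN5 that modifies PGC-1α and shares the SAGA complex with USP22, had a difference of 0.04.

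The embryonic network to which Esrrb belongs was mostly not measured in MECs. Of 23 naive pluripotency genes 13 were not in the table, Pou5f1, Nanog, Sall4 and Zfp42 among them. In limma 0 of the 10 measured passed an unadjusted p of 0.05 or less, beside 3.81% of all genes. Of the 10, edgeR and DESeq2 each called 1, beside 597 and 626 of all 16124 genes. Their median log2 difference was 0.08, between −0.41 for Sox2 and 0.34 for Tfcp2l1, which Esrrb partners in stem cells (p 0.0511). Klf4 and Stat3, the most abundant, are also general epithelial factors; Klf4 was at 23346 ± 6495 normalized counts in WT against 28244 ± 9416 in OE/OE (SD, n = 7), higher in 6 of 7 pairs (log2 difference 0.19, p 0.451, adjusted p 1.00, and 0.46 with p 0.00546 without pair 4), and Stat3 had a difference of 0.03 (p 0.780, adjusted p 1.00).

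Among nuclear receptors, 36 of 49 listed were measured. Esrrb, which had been selected on its genotype difference, had the largest one in either direction, and the next was Vdr, the vitamin D receptor, at −0.36. Of the 35 receptors other than Esrrb, 1 passed an unadjusted p of 0.05 or less, or 2.86%, beside 3.81% of all genes. It was Thrb, the same gene as on the coregulator list. The median of the list was 0.02. In the class to which the ERRs belong, Esr2 was not in the table and none of the steroid receptors named here passed. Esr1, the estrogen receptor, was at 4384 ± 1603 normalized counts in WT against 5153 ± 2200 in OE/OE (SD, n = 7; log2 difference 0.18, limma p 0.362), and Pgr, its target, at 9470 ± 6920 and 10015 ± 9032 (−0.23, p 0.316). The glucocorticoid and mineralocorticoid receptors Nr3c1 and Nr3c2 had differences of 0.10 (p 0.212) and −0.04 (p 0.853). The orphan receptors Nr4a1 and Nr4a3, which respond within minutes to stress and handling, were the most abundant of the list and had differences of 0.01 (p 0.984) and −0.17 (p 0.366). Leaving out 1 pair moved several of these: without pair 5 Pgr was −0.43 (p 0.0369) and Esr1 0.0067, and without pair 4 Nr3c2 was 0.22, Nr4a1 0.30 and Nr4a3 0.0027. In the main fit the adjusted p of each receptor named here other than Esrrb was 1.00. With the white adipocyte score as a covariate, a fit in which 18.4% of all genes passed, Esr1 was 0.58 (unadjusted limma p 0.0206) and Nr4a1 0.76 (p 0.0174). In that fit Pgr was −0.16 (p 0.644), Nr3c1 0.12 (p 0.298) and Nr4a3 0.27 (p 0.202).

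**Figure D4:**
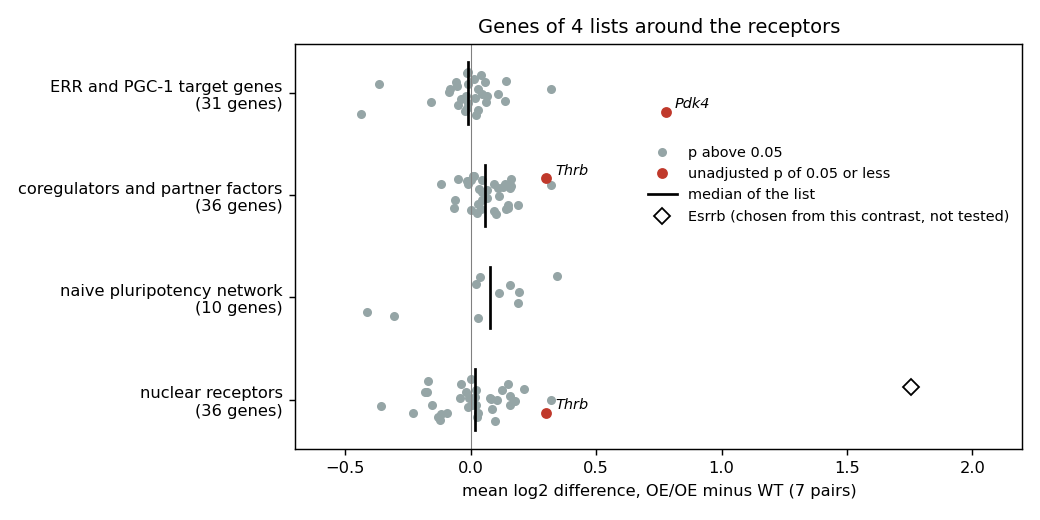
Mean log2 difference between OE/OE and WT (7 pairs) of each measured gene in the 4 lists, with genes at an unadjusted limma p of 0.05 or less in red, Esrrb as an open diamond and the median of each list as a black line. The medians lay between −0.01 and 0.08; Pdk4 and Thrb were the genes past the threshold, and Esrrb, which led to the selection, is shown at 1.75 with no test.

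These counts moved with the pair that stood apart and with the adipocyte score, as did the counts over all genes. Some genes are shared between lists, Rxra, Thrb and Ncoa3 among them, so the counts of the lists are not separate. Without pair 4, 8.47% of all genes passed an unadjusted p of 0.05 or less. The lists then had 2 of 31 target genes (6.45%, Pdk4 higher and Cyc1 lower), 5 of 36 coregulators (13.9%, Mef2c, Ncoa2, Ncoa3, Rxra and Thrb, all higher), 3 of 10 pluripotency genes (30%, Klf4, Ncoa3 and Tfcp2l1, all higher) and 8 of the 35 nuclear receptors other than Esrrb (22.9%). With the white adipocyte score as a covariate, 18.4% of all genes passed, and the counts were 1 of 31 target genes (3.23%, Ltf, at a log2 difference of 0.79), 8 of 36 coregulators (22.2%), 5 of 10 pluripotency genes (50%) and 16 of the 35 nuclear receptors other than Esrrb (45.7%). Of the citric acid cycle genes of the target list 0 were called in these 3 fits, and of the respiratory chain genes Cyc1 alone, without pair 4.

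The genes most like Esrrb were found from its variation within genotypes. Pearson r with Esrrb was taken over the 14 libraries after the mean of each genotype had been subtracted, for 13229 genes with a mean of at least 50 normalized counts, and is a description of these libraries, in which litter and composition are shared. The median r was 0.03, and 34 genes had an r above 0.8. The 5 highest were Cdk18, a cyclin-dependent kinase (r = 0.89), 6030458C11Rik (0.87), Zbtb8a, a zinc finger protein (0.87), Oplah, 5-oxoprolinase (0.87), and Chpf2, an enzyme of chondroitin synthesis (0.86). The 3 lowest were Fam25c (−0.92), Fbp1, a gluconeogenic enzyme (−0.89), and 4930522L14Rik (−0.88).

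Cdk18 and Fam25c showed the pattern in both genotypes, which follows in part from choosing them by r over both genotypes. For Cdk18 r was 0.81 in WT against 0.98 in OE/OE, and for Fam25c it was −0.88 and −0.99. Among WT mice Cdk18 ran from 1059 normalized counts in pair 6, the mouse with the lowest Esrrb, to 4303 in pair 5. Fam25c ran the other way in WT, from 3950 in pair 6 to 391 in pair 5. Neither gene showed a detectable genotype difference: Cdk18 was at 2541 ± 1190 normalized counts in WT against 2374 ± 1128 in OE/OE (SD, n = 7), a log2 difference of −0.12 (limma p 0.509, adjusted p 1.00), and Fam25c had a difference of −0.16 (p 0.635, adjusted p 1.00). The other 6 had differences between −0.30 and −0.01, the smallest p being 0.107 for Zbtb8a. Of the receptors and coactivators, Pprc1 was positive (r = 0.56), Ppargc1b weakly so (0.23), and Esrra (−0.22), Ppargc1a (−0.30) and Esrrg (−0.47) were negative, while Pgr was at 0.63 and Esr1 at −0.15.

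**Figure D5:**
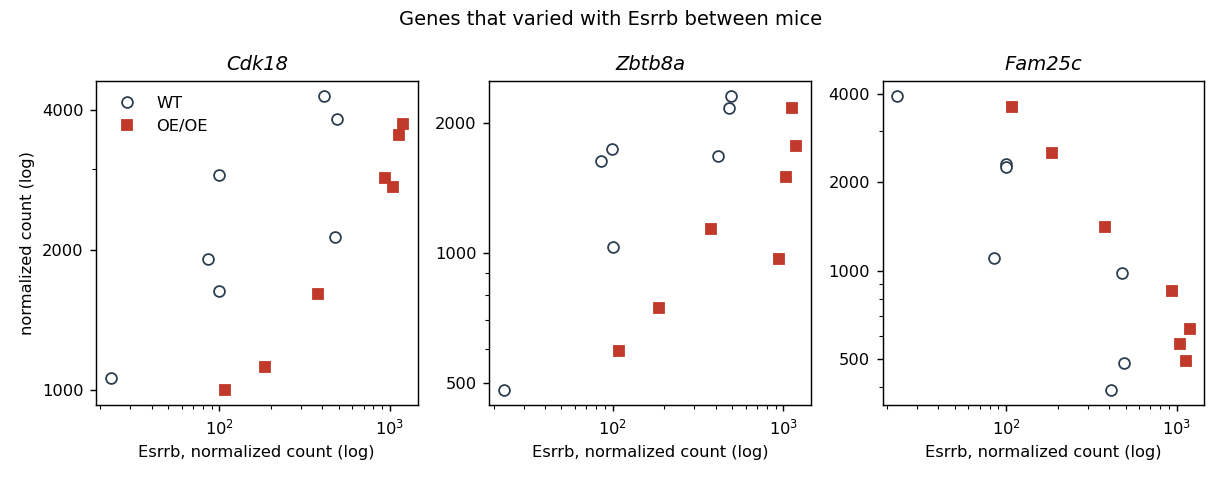
Normalized counts of Cdk18, Zbtb8a and Fam25c (vertical axes, log scale) against those of Esrrb (horizontal axes, log scale) in the 7 WT (open circles) and 7 OE/OE mice (red squares). Within each genotype the points of Cdk18 and Zbtb8a climb and those of Fam25c descend with Esrrb, with exceptions such as Zbtb8a in the OE/OE mouse of pair 4 (969).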

How the data were processed

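MEC RNA was made into poly(A) libraries (TruSeq mRNA) and sequenced as read pairs. The authors aligned them to mm10 (TopHat2 2.0.10), counted fragments per GENCODE M21 gene (HTSeq 0.6.0), kept genes with at least 10 fragments in 7 samples and deposited a signal, counts divided by DESeq 1.18.0 size factors. In each library 100% of these values were whole multiples of 1 fragment (tolerance 0.01), which gave the depth. All 16124 identifiers matched GENCODE M21. The 7 mice per group are separate animals, no libraries were alike (smallest chi-square per gene 30.3), and littermates deviated together (same-pair correlations 0.171 to 0.748, median 0.522, against −0.151 otherwise). limma 3.58.1 in R 4.3.3 (lmFit, eBayes with trend) was fitted to log2(normalized count + 1) of all genes with the pair as a block and a threshold of 0.05 on the unadjusted p, the level the authors used, beside Benjamini-Hochberg adjusted values; the pseudocount understates changes of low genes. Single relations and levels used exact permutation or sign-flip tests. Alternatives used edgeR 4.0.16 (quasi-likelihood test), DESeq2 1.42.0 and the settings named in the closing section. Scripts were tested on simulated data. The members and gene lists were chosen with earlier results of these data known. Genes named are the members, in each list those past the threshold and the 2 most abundant, the steroid receptors, Usp22 and the 5 and 3 genes most and least like Esrrb; other list genes were named after their values were seen, and some results under this rule are not reported here. Sequences are RefSeq's; that of Ppargc1b is not shown.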

Additional observations from a re-analysis of the deposited data

How the results depend on the processing

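The Esrrb difference kept its direction in all 19 alternatives (0.98 to 2.10). The other 5 members stayed short of the threshold in all of theirs. The estimates of Esrra, Esrrg, Ppargc1a and Ppargc1b changed sign in some alternatives. Not all stayed near 0, as Esrrg reached 0.46 with the adipocyte score and Ppargc1a is given below. Esrra was 0.0057 with quantile normalization, 0.013 with median centring, 0.12 with the white adipocyte score and 0.033 with the hormone-sensing score as covariates. Ppargc1a was 0.052 with quantile normalization, 0.71 with the adipocyte score and 0.074 with the hormone-sensing score. With 1 pair left out in turn, Esrra ran from −0.057 to 0.061, Esrrg from −0.13 to 0.19, Ppargc1a from −0.32 to 0.19 and Ppargc1b from −0.043 to 0.17.

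In the fit without the replicate block, 182 genes were called in place of 614, with 0 coregulators and 1 nuclear receptor. The receptor counts here are over the list with Esrrb. A call of Esrrb is no test, so these are not counts of tested receptors alone. With the adipocyte score 2968 were called, with 8 coregulators, 5 pluripotency genes and 16 nuclear receptors. With 1 pair left out the calls ran from 381 (without pair 6) to 1366 (without pair 4) over all genes, from 1 to 2 for target genes, from 0 to 5 for coregulators, from 0 to 3 for pluripotency genes and from 1 to 9 for nuclear receptors. A paired fit without moderation called 694 of all genes, with 0 of 31 target genes and 2 of 36 coregulators. DESeq2 called 626, with 2 of 36 coregulators and 1 of 10 pluripotency genes. For edgeR the counts were 597 and 1 of 10 pluripotency genes, and for median centring 631 and 2 of 36 coregulators. With the hormone-sensing score 610 were called, with 0 of 36 coregulators and 1 of 10 pluripotency genes. The lists are short, so nothing is read from these counts. The cause was not tested for these shifts. The blocked fit was the main one throughout.

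The order of levels was the same with any mouse left out, but 6 mice cannot give a p below 0.03125, and 0 neighbours passed after adjustment. Without the 2 pairs farthest in the other quantity, the r of the Esrrb ratio was −0.78 with Esrra, 0.73 with Ppargc1b, 0.52 with Pprc1, 0.32 with the hormone-sensing, 0.53 with the luminal progenitor and 0.36 with the Schwann score, each of the opposite sign to the value over 7 pairs. Without the 2 pairs farthest in Esrrb (4 and 8), it was 0.73 with Esrra, −0.30 with Ppargc1b and −0.43 with Pprc1, so no direction is read from them. With the adipocyte score as a covariate Ltf was 0.79 (p 0.0281) and Nr3c2 0.55 (p 0.0433), both reversed. Ppargc1a and Ppargc1b rest on as few as 21 and 29 fragments in a library.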
